A study of Mus musculus with 4 samples.

Results

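The genes described here encode actin and the proteins that bind it: 55 genes chosen by name for their known roles, all 55 of which were among the 24346 gene rows measured. Their RNA was measured in Treg cells, Foxp3-expressing CD4+ T cells that hold immune responses in check, sorted as Thy1.2+ CD4+ cells carrying the Foxp3-Cre-GFP reporter from the spleens of male mice aged 16 weeks. All mice carried the Foxp3-driven Cre, which acts in Foxp3-expressing cells. There were 2 wild-type (WT) libraries, from mice wild-type for Tcf1 and Lef1 (transcription factors; Tcf1 is encoded by Tcf7), and 2 libraries from mice in which both are floxed, labelled Tcf1-/-Lef1-/- and called dKO here. Values for 4 libraries in a row follow the order WT_0, WT_1, dKO_0 and dKO_1. The labels do not say whether libraries came from separate or pooled animals, so p-values reflect only how far these libraries spread, which could be technical. Because RNA was taken from bulk cells, fewer cells of a type and less RNA per cell cannot be told apart.

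Actin is a globular protein that assembles into filaments. Profilins, thymosins and twinfilins bind its monomers, the Arp2/3 complex and formins start new filaments, capping proteins stop their growth, cofilins take them apart, and crosslinkers, tropomyosins and myosin II shape them into networks that bear force. In T cells these networks carry migration, receptor signalling and the contact with antigen-presenting cells, and loss of Was, Coro1a or Arpc1b causes immune deficiency in humans.

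Levels are given in FPKM, mapped fragments scaled to transcript length and library depth, so levels of different genes can be compared per length. A difference is the dKO mean less the WT mean of log2(FPKM + 1), tested with limma over every row that reached 1 FPKM in 2 or more libraries. This filter left 11595 rows, including 54 of the 55 genes. Tpm2, a muscle-type tropomyosin, did not reach it, with 0.153, 0.106, 0.146 and 0.0585 FPKM in WT_0, WT_1, dKO_0 and dKO_1. A gene is called at an adjusted p under 0.05. The value of 1 fragment in long genes put the depth of the libraries at about 20400000 to 25700000 fragments. Both targeted genes had lower levels in the dKO libraries, as labelled, without being called, and the levels include any exons outside the floxed part: Tcf7 had 345, 309, 247 and 249.6 FPKM and Lef1 59.9, 66.5, 41.3 and 36 FPKM (limma adjusted p = 0.158 and 0.113). The defining markers of Treg and T cells were present. Foxp3 had 113, 121, 133 and 144 FPKM, Cd4 had 245, 233, 219.5 and 215 FPKM and Cd3e had 422, 390, 424 and 425 FPKM. The dKO libraries lay above WT for Foxp3 and Cd3e and below WT for Cd4. Of the 8 T cell markers listed, 5 had both dKO libraries above WT and 1 had both below, with 0 called. Over all rows 27.8% and 23.4% had these orders. Markers of other cells were detected too. B cell markers summed to 126 and 46.3 FPKM in WT and 125 and 190 in dKO, and neutrophil markers to 394 FPKM in WT_0 against 75.3 to 121 in the other libraries. Erythroid markers summed to 243 and 21.6 FPKM in WT and 71.3 and 182 in dKO.

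Of the 54 tested genes, 1 fell, 0 rose and 53 were not called. The gene that fell was Actn1, which encodes the crosslinker alpha-actinin-1. Over all rows tested, 0.164% were called lower and 0.181% higher. With small RNA rows left out, Actn1 was again the one gene called, where 0.51% of all rows were called lower and 1.13% higher. The differences were small: 52 of the 54 differed by less than 0.5 on the log2 scale, and for 47 the 95% interval of the difference lay within -0.5 and 0.5. The difference was above 0 for 43 genes and below 0 for 11, with a median of 0.11 against 0.01 over all rows tested. Differences above 0 made up 52.8% of all rows tested. Both dKO libraries lay above both WT libraries for 35 of the 54, where 27.8% of all rows did so, and below both for 8, where 23.4% did. Abundant rows leaned the same way in these libraries. Among 945 rows with a mean FPKM of at least 100, the median difference was 0.06, and both dKO libraries were above both WT libraries in 38.6% and below both in 17.9%. The 35 actin genes at this level had 26 above and 2 below, and a median of 0.12. The difference was above 0 in 599 of the 945 rows and in 32 of the 35 actin genes. At an unadjusted p under 0.05, 14 genes were higher and 2 lower in dKO, against 9.64% and 7.08% of all rows. The libraries within dKO also differed, since dKO_0 was above dKO_1 in 41 of the 54 genes and in 73.4% of the rows with a mean FPKM of at least 100. After median centring of the libraries, 28 genes had both dKO libraries above both WT libraries and 9 had both below, where 23.8% and 26.9% of all rows did. After quantile normalization these counts were 31 and 9, where 24.2% and 26% of all rows did. The shares among rows with a mean FPKM of at least 100 were not taken after either scaling. These counts therefore do not account for the lean of abundant rows. In the authors' deposited table, 1 of the 55 genes, Actn1, was in the list of lower genes and 0 were in the list of higher genes, where the lists held 0.604% and 0.76% of all rows.

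**Figure D1:**
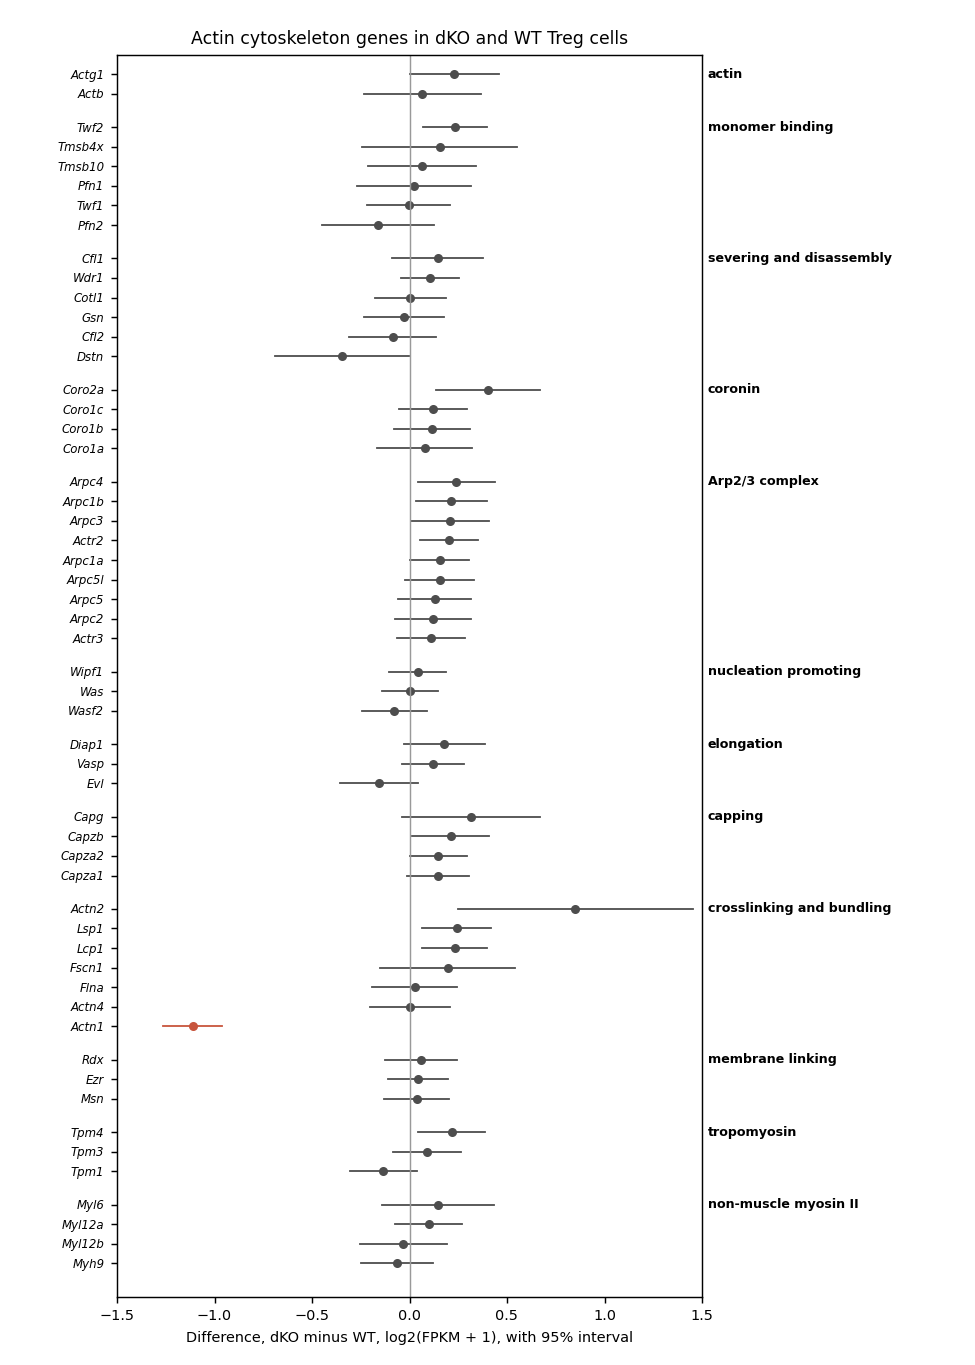
Difference of each of the 54 tested genes, dKO mean less WT mean of log2(FPKM + 1), grouped by role, with limma's 95% interval (2 libraries a group). Actn1, in red, is the called gene at -1.11, and 47 of the other intervals lie within -0.5 and 0.5.

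**Figure D2:**
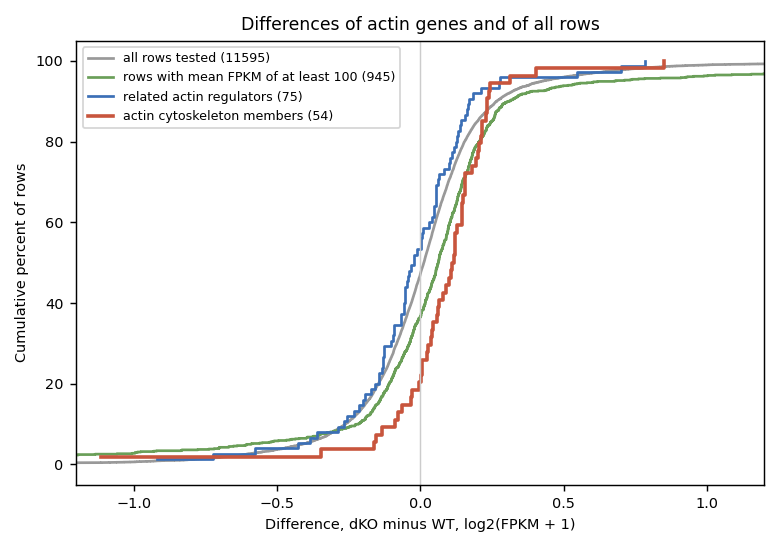
Cumulative percent of rows (vertical axis) against the difference, dKO mean less WT mean of log2(FPKM + 1) (horizontal axis, shown from -1.2 to 1.2), for the actin genes, the related regulators, the abundant rows and all rows tested. The curve of the actin genes lies to the right over most of its length, with a median of 0.11, and has a single point near -1.1.

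Alpha-actinins are antiparallel dimers that tie actin filaments together and link them to integrins. Levels of Actn1 were 67 and 68.1 FPKM in the WT libraries and 30 and 31.4 FPKM in the dKO libraries. The groups were far apart and each pair of libraries lay close together. Its level fell by 54.5%, a log2 difference of -1.11 (SE 0.0566, 95% interval -1.27 to -0.96, limma adjusted p = 0.0135). In the authors' deposited table its log2 fold change was -1.14 with a q of 0.00365. Leaving out dKO_0 gave a difference of -1.08 with an adjusted p of 0.202, and leaving out dKO_1 gave -1.14 with 0.168, each with 2 called rows in the whole table. Over all alternatives its adjusted p ranged from 0.00408 to 0.202. Actn1 lies on mouse chromosome 12 from 80167547 to 80260371 on the minus strand (GRCm38) and codes for protein. Annotated genes overlap it on the same strand (Gm47765) and on the opposite strand (Gm47766 and Gm47767), so their reads may not be separable, since the strand setting of the authors' counting is not stated in these sources.

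Its non-muscle relative Actn4 was not called. Actn4 (chromosome 7, 28893248 to 28962340, minus strand), encoding alpha-actinin-4, had 85.6, 80.3, 79.3 and 87.3 FPKM in WT_0, WT_1, dKO_0 and dKO_1. The groups overlapped, and the log2 difference was 0.00 (95% interval -0.20 to 0.21, limma adjusted p = 0.984), with a sign that turned under median centring and quantile normalization. In these libraries the makeup of alpha-actinin transcripts differed between the groups. Actn1 supplied 43.9% and 45.9% of the summed FPKM of Actn1 and Actn4 in the WT libraries and 27.5% and 26.5% in the dKO libraries, a mean difference of -17.9 percentage points. The sum of both genes averaged 150.5 ± 2.95 FPKM in WT against 114 ± 6.62 FPKM in dKO (SD, n = 2 each), with both dKO libraries below both WT libraries. With 2 libraries against 2, an exact permutation test cannot go below p = 0.333, so these shares carry no test of their own. In the longest annotated coding transcript, 0.434% of the 50-base windows of Actn1 occurred in Actn4, so little of their sequence is shared. The muscle-type Actn2 had 0.42 and 1.07 FPKM in WT and 2.09 and 2.1 in dKO. Both dKO libraries were above both WT libraries, but the gene was not called (log2 difference 0.85, 95% interval 0.25 to 1.45, limma adjusted p = 0.206). At so low a level the pseudocount sets the size, and with a pseudocount of 0.1 the difference was 1.49. The authors' deposited table gave it a q of 0.0589. Even in dKO it added little to the alpha-actinin total, which was 116 ± 6.62 FPKM with Actn2 included.

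**Figure D3:**
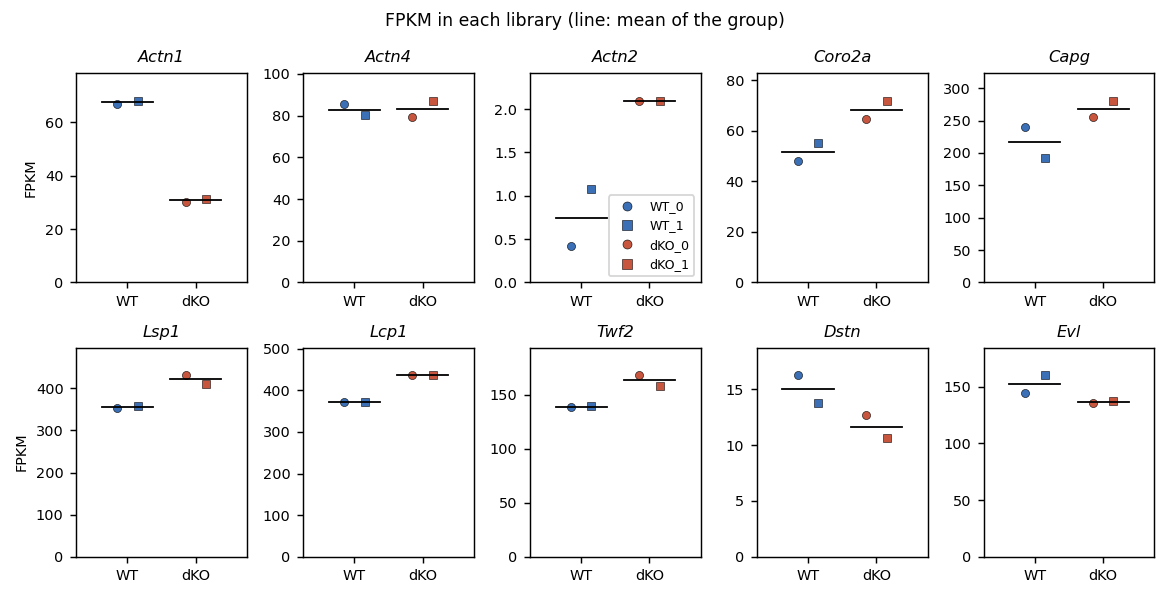
FPKM (vertical axes, each from 0) in each library for the 3 alpha-actinin genes and for other genes with large differences; symbols mark libraries, colours the groups (2 libraries each) and lines the group means. Actn1 is the called gene, with means of 67.6 FPKM in WT and 30.7 FPKM in dKO, while Actn4 overlaps. Lcp1, not called, also has tight groups that lie apart.

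The start regions of Actn1 and Actn4 are shown because 1 of these related genes was called and the other was not, and those of Actg1 and Myl6 because they hold a CArG box, the element bound by serum response factor that controls many actin genes. Each runs from 250 bases before to 50 bases after an annotated start, 5′ to 3′ on the gene's strand, from RefSeq (GRCm38.p6), with matches in capitals.
Actn1 (chr12:80260314-80260613, minus strand): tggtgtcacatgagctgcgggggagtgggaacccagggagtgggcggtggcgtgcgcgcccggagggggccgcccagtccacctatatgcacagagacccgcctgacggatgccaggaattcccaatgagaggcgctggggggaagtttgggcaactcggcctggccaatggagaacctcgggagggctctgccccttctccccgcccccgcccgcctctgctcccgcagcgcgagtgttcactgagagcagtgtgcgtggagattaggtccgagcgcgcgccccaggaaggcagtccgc
Actn4 (chr7:28962283-28962582, minus strand): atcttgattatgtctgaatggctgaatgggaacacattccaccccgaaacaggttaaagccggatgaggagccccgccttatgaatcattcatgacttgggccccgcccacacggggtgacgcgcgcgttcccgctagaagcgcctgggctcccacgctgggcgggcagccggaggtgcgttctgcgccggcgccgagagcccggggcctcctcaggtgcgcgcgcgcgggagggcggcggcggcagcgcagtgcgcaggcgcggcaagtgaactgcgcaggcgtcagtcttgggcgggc
Actg1 (chr11:120348446-120348745, minus strand): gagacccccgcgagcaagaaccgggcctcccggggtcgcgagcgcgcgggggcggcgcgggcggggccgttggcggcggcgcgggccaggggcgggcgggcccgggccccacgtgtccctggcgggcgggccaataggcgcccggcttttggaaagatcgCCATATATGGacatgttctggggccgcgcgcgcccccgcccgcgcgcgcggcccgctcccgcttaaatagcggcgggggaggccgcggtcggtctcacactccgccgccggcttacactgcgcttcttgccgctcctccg
Myl6 (chr10:128492960-128493259, minus strand): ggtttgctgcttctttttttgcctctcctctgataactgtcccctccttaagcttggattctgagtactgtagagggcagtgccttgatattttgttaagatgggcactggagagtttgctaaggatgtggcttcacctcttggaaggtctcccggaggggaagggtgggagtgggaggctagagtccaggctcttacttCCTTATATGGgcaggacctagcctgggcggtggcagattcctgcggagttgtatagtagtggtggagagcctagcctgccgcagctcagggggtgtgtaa
Start regions were found for 48 of the 55 genes and were searched for the CArG box and for the core of the TCF/LEF site, spelled CTTTG followed by 2 bases that are AA, AT, TA or TT, on both strands. No start region was found for Actb, Arpc5l, Coro1b, Cotl1, Diap1, Lsp1 and Twf2, so these genes were not searched. No window of the 48 genes held both motifs. Neither motif occurred in the windows of Actn1 and Actn4. The CArG box of Actg1 began 90 bases and that of Myl6 50 bases before the start, and a further annotated start of Myl6 held neither motif. Over all 27025 genes with a window, 18.9% held the TCF/LEF core and 1.81% a CArG box, and of the 48 actin genes 8 held the core (Arpc1a, Evl, Fscn1, Lcp1, Rdx, Tmsb4x, Vasp and Wasf2) and 3 a CArG box (Actg1, Arpc4 and Myl6). A match describes letters and not binding.

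Actin itself was among the most abundant transcripts of these cells. Actb, for beta-actin, had 3655, 3672, 3868 and 3804 FPKM in WT_0, WT_1, dKO_0 and dKO_1, and ranked 17 of all rows once small RNA rows were set aside. Actg1, for gamma-actin, had 1083, 1044, 1286 and 1209 FPKM. For both genes the dKO libraries lay above the WT libraries, with log2 differences of 0.07 (95% interval -0.23 to 0.36) and 0.23 (95% interval 0.000273 to 0.46). The interval of Actg1 just left out 0, and neither gene was called (limma adjusted p = 0.791 and 0.299). Actg1 supplied 22.8% and 22.1% of the summed FPKM of both in WT and 25% and 24.1% in dKO. Values of Actg1 are uncertain, since 56.7% of the 50-base windows of its longest annotated coding transcript also occur in other annotated genes, among them Actg-ps1, against 14.2% for Actb.

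The monomer-binding genes held the most abundant transcript of the set. Tmsb4x, for thymosin beta-4, which sequesters actin monomers, had 6037, 5871, 7086 and 6199 FPKM and ranked 3. Its relative Tmsb10 had 2280, 2360, 2507 and 2341 FPKM. The dKO libraries of Tmsb4x lay above the WT libraries, dKO_0 by far the most, and those of Tmsb10 overlapped with WT. The log2 differences were 0.15 (95% interval -0.24 to 0.55) and 0.06 (95% interval -0.21 to 0.34), neither called (limma adjusted p = 0.632 and 0.787). Windows shared with other genes made up 43.5% for Tmsb10. Pfn1, for profilin 1, which hands monomers to growing filament ends, overlapped between the groups, with means of 2990 ± 128 and 3037 ± 70.3 FPKM (SD, n = 2 each). Pfn2, scarce in these cells, had 4.05, 3.55, 3.38 and 3.19 FPKM, lower in both dKO libraries (log2 difference -0.16, adjusted p = 0.496). Twinfilins cap filament ends and bind monomers. Twf2 had 138.5, 139 in WT and 168, 158 FPKM in dKO (log2 difference 0.23, 95% interval 0.07 to 0.40, limma adjusted p = 0.207), while Twf1, at about 12 FPKM, overlapped. All 55 genes together took 4.41% and 4.49% of the summed FPKM in WT and 4.82% and 4.76% in dKO, small RNA rows set aside, and the 6 monomer-binding genes alone 1.85% to 2.06%.

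Genes of the Arp2/3 complex, which starts branches on existing filaments, had differences above 0. In 9 of 9 rows both dKO libraries lay above both WT libraries, yet none was called, and 5 were higher at an unadjusted p under 0.05. Over all rows 27.8% had this order of libraries, over rows with a mean FPKM of at least 100 it was 38.6%, and 9.64% of all rows were higher at that unadjusted p. The log2 differences ran from 0.11 (Actr3) to 0.24 (Arpc4), or 8.11% to 18.1% above the WT mean, and all 9 stayed above 0 under each scaling and without any 1 library. The 9 rows are parts of 1 complex measured in the same libraries and are not separate replicates. Arpc1b, the form of its subunit that prevails in blood cells, was the most abundant, with 435 and 415 FPKM in WT and 498 and 488 FPKM in dKO (log2 difference 0.21, 95% interval 0.03 to 0.40, limma adjusted p = 0.251). Its relative Arpc1a had 40.4, 39.8, 43.9 and 45.7 FPKM. Arpc1a made up 8.51% and 8.76% of the pair in WT and 8.11% and 8.56% in dKO, so the groups overlapped in this share. The same held for Arpc5l and Arpc5, where Arpc5l supplied 24.2% and 22.8% in WT and 23.5% and 24.1% in dKO. Arpc5 had 229, 232, 263 and 242 FPKM and Arpc5l 73.1, 68.5, 80.9 and 76.8 FPKM, each with dKO above WT (limma adjusted p = 0.418 and 0.339). Arpc4, with the largest difference of the complex, had 123, 112, 142 and 135 FPKM (adjusted p = 0.244) and overlaps Ttll3 on the same strand. Actr2 and Actr3, the actin-related pair at the core, averaged 146 ± 2.65 and 376.5 ± 0.525 FPKM in WT, and 168 ± 0.74 and 407 ± 13.7 FPKM in dKO (SD, n = 2 each). For Actr3, 49.8% of windows also occur in other annotated genes.

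The activators of the complex had differences near 0. Was, for the Wiskott-Aldrich syndrome protein that turns on Arp2/3 below antigen receptors, had 107, 110, 108 and 109 FPKM, with overlapping groups (log2 difference 0.00, 95% interval -0.14 to 0.15, limma adjusted p = 0.986). The sign of this difference turned under median centring and quantile normalization. Wipf1, which stabilises that protein, had 92.2, 88.6, 92.8 and 93.2 FPKM, and Wasf2, a subunit of the WAVE complex, 56.9, 58, 52.5 and 56.3 FPKM. Their log2 differences were 0.04 and -0.08. Of the elongation factors, Vasp had 273, 273, 300.1 and 293 FPKM with dKO above WT (log2 difference 0.12, limma adjusted p = 0.386), and Evl, its family member, 145, 161, 136 and 138 FPKM with dKO below WT (log2 difference -0.15, adjusted p = 0.379). Vasp and Evl both help filaments grow, and their differences had opposite signs. Diap1, an older symbol of the formin gene Diaph1, had 47.8, 54, 57.7 and 57.5 FPKM (log2 difference 0.18, adjusted p = 0.345).

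Capping and coronin genes likewise had differences above 0. Both dKO libraries lay above both WT libraries in 4 of 4 capping and 4 of 4 coronin genes, with 0 called in each group. This order of libraries held in 27.8% of all rows and in 38.6% of rows with a mean FPKM of at least 100. Capzb, the beta subunit of capping protein, had 271, 255, 315 and 293 FPKM (log2 difference 0.21, 95% interval 0.01 to 0.41, limma adjusted p = 0.278), and its alpha subunits Capza1 and Capza2 differed by 0.15 each. For Capza1, 73.8% of windows are shared with other annotated genes. Capg, a calcium-dependent capping protein that macrophages also express, had 241, 193, 256 and 281 FPKM (log2 difference 0.31, 95% interval -0.04 to 0.67, adjusted p = 0.332). Its WT libraries were far apart, and without WT_0 the difference was 0.47. Of the 13 monocyte and macrophage markers tested, 13 were lower and 10 had both dKO libraries below WT, with 8 lower at an unadjusted p under 0.05 and 0 called by limma. They summed to 623 and 755 FPKM in WT and 539 and 534 in dKO, and their part in these values was not tested. Over all rows 23.4% had both dKO libraries below WT, and 7.08% were lower by limma at an unadjusted p under 0.05. Coro2a had the largest difference among the coronins, proteins that bind filaments and Arp2/3, with 47.9, 55, 64.6 and 72 FPKM (log2 difference 0.40, 95% interval 0.14 to 0.67, limma adjusted p = 0.191). Coro1a, the main coronin of lymphocytes, was far more abundant, with 1418, 1363, 1514 and 1422 FPKM, and its dKO_1 library lay just above WT_0 (log2 difference 0.08, adjusted p = 0.693). Coro1b overlaps Ptprcap on the same strand and shares 20.8% of its windows with it.

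**Figure D4:**
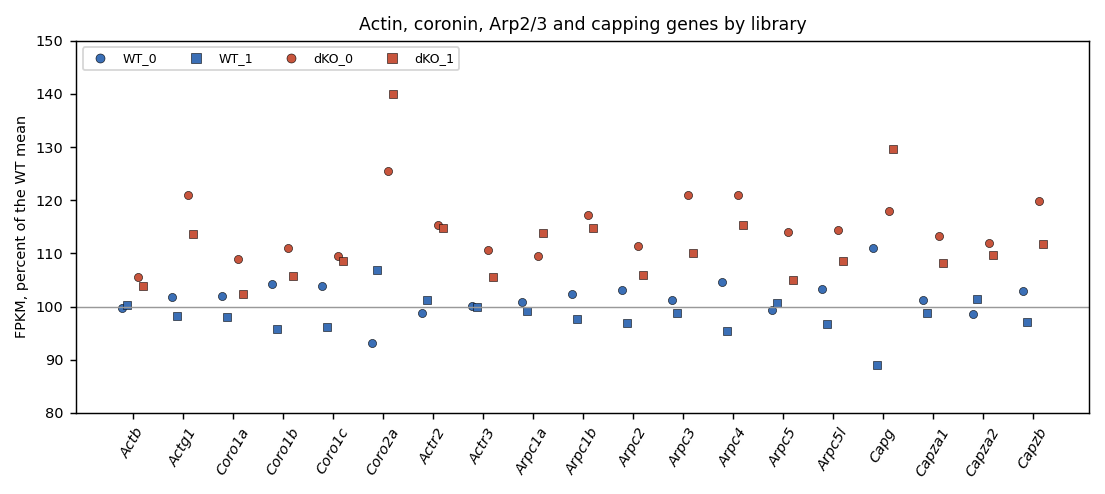
FPKM of each library as a percent of the gene's WT mean (vertical axis, shown from 80 to 150) for actin, coronin, Arp2/3 and capping genes, with symbols for libraries and colours for groups (2 libraries each). In every gene shown both dKO libraries lie above both WT libraries, an order found in 27.8% of all rows. Among rows with a mean FPKM of at least 100 it was found in 38.6%. The dKO libraries lie at 102% to 121% of the WT mean except for Coro2a (126% and 139.9%) and Capg (118% and 129.6%). Each role that is not shown held genes without this order.

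Genes grouped under severing and disassembly gave no common direction, with 3 differences above 0 and 3 below. After median centring or quantile normalization 2 lay above 0 and 4 below. Cfl1, for cofilin 1, which severs filaments, had 1317, 1263, 1460 and 1392 FPKM (log2 difference 0.14, limma adjusted p = 0.466), and its cofactor Wdr1 162, 159, 172 and 174 FPKM. In both, the dKO libraries lay above the WT libraries. Relatives of Cfl1 lay below: Dstn, for destrin, had 16.3, 13.8, 12.7 and 10.6 FPKM (log2 difference -0.35, 95% interval -0.69 to -0.00123, adjusted p = 0.298), and Cfl2 had 7.48, 7.49, 7.32 and 6.66 FPKM (log2 difference -0.09). Dstn had the second most negative difference of the set, and its interval just left out 0. Cotl1, a coactosin-like protein, and Gsn, for the severing protein gelsolin, overlapped between groups at means of 524 and 525 FPKM and of 14 and 13.7 FPKM.

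Among the other crosslinkers, Lcp1 and Lsp1 had higher levels in both dKO libraries, without being called. Lcp1, for L-plastin, which bundles filaments in T cells, had 371 and 373 FPKM in WT and 437 in each dKO library. The libraries of each group nearly coincided, with a log2 difference of 0.23 (95% interval 0.07 to 0.40, limma adjusted p = 0.208). Lsp1, a leukocyte filament-binding protein, had 354, 357, 432 and 410 FPKM (log2 difference 0.24, 95% interval 0.06 to 0.42, adjusted p = 0.215). Flna, for filamin A, which joins filaments at angles, overlapped between the groups at 177 ± 14.7 and 180 ± 4.84 FPKM (SD, n = 2 each). Fscn1, for fascin, a bundling protein known from mature dendritic cells, stood at 3.56, 4.35, 4.96 and 4.36 FPKM. Its dKO_1 library lay just above WT_1 (log2 difference 0.19, limma adjusted p = 0.495). The dendritic cell markers summed to 5.24 and 8 FPKM in WT and 4.54 and 5.26 in dKO, and their part in the values of Fscn1 was not tested.

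None of the 3 genes that tie filaments to the membrane was called, and their differences were small. Msn, for moesin, the main such protein of T cells, had 314, 326, 330 and 328 FPKM (log2 difference 0.04, 95% interval -0.13 to 0.20, limma adjusted p = 0.786). Ezr and Rdx, for ezrin and radixin, differed by 0.04 and 0.06. Tropomyosins, which coat filaments and set which proteins reach them, split: Tpm4 had 118, 122, 144 and 135 FPKM (log2 difference 0.22, adjusted p = 0.236), Tpm1 26.4, 24.9, 23.8 and 22.8 FPKM (log2 difference -0.13, adjusted p = 0.382), and Tpm3 318, 311, 343 and 327 FPKM (log2 difference 0.09, adjusted p = 0.522; 62.4% of its windows are shared with other genes). For Tpm4 and Tpm3 the dKO libraries lay above WT, for Tpm1 below.

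No motor gene was called. Myh9, the heavy chain of non-muscle myosin II, had 387, 405, 371 and 387 FPKM, with dKO_1 just below WT_0 (log2 difference -0.06, 95% interval -0.25 to 0.12, limma adjusted p = 0.663). The light chain gene Myl6 had 992, 873, 1077 and 984 FPKM, with overlapping groups (log2 difference 0.15, adjusted p = 0.537). Its regulatory partners Myl12a and Myl12b had 158, 150.1, 169 and 161 FPKM and 436, 394, 416 and 395 FPKM, with log2 differences of 0.10 and -0.03. The latter turned sign without WT_0 and without dKO_1. Both genes share windows with each other and with further annotated genes, 29.6% of Myl12a and 11.4% of Myl12b in all, so the split of reads between them is uncertain.

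Upstream regulators and further actin-binding genes had differences on both sides of 0. A list of 83 symbols covered such genes, among them WAVE complex genes, formins, other actin binders and the SRF and MRTF factors. Some symbols name the same gene: Mrtfa and Mrtfb are newer symbols of Mkl1 and Mkl2, and Diaph1 of Diap1 above. Of the symbols searched 76 had rows and 75 were tested. By limma 0 were called in either direction, while an unadjusted p under 0.05 was reached by 9 of the 75 as higher and by 9 as lower, where 9.64% and 7.08% of all rows did so. The median difference was -0.02, and 35 lay above 0 and 40 below, where 52.8% of all rows lay above 0. Both dKO libraries were above both WT libraries in 20 of the 75 and below both in 24, where 27.8% and 23.4% of all rows were. The values at the ends were Myo1f, a leukocyte class I myosin, with 29, 33.2, 54 and 54.2 FPKM (log2 difference 0.78, 95% interval 0.56 to 1.01, limma adjusted p = 0.0747), and Lima1, a filament-stabilising protein, with 5.54, 3.68, 1.96 and 1.89 FPKM (log2 difference -0.92, adjusted p = 0.16). In the authors' deposited table both had a q of 0.00365, Myo1f in the higher and Lima1 in the lower list. Across the alternatives the limma adjusted p of Myo1f spanned 0.0172 to 0.466, with 0.0187 once small RNA rows were left out, and that of Lima1 spanned 0.0433 to 0.63, lowest without WT_1. Cttn, for cortactin, which binds filaments and Arp2/3, had 3.82, 1.97, 1.19 and 1.39 FPKM (limma adjusted p = 0.296). Of the 6 SRF and MRTF factors tested, 0 were called, and both dKO libraries were below WT in 4 and above WT in 1. Srf, for serum response factor, had 43.1, 44.6, 41.3 and 38.9 FPKM, and Mkl1, for its cofactor MRTF-A, which binds actin monomers, had 48.8, 50.5, 43.9 and 45.7 FPKM (limma adjusted p = 0.393 and 0.315). Mkl2, for the related MRTF-B, overlapped between the groups at 5.83, 6.75, 5.3 and 6.3 FPKM, and Elk3 had higher levels in dKO, with 23.6, 23.2, 26.2 and 26.6 FPKM (limma adjusted p = 0.704 and 0.275). Elk1 had 5.75, 6.43, 4.15 and 4.72 FPKM and Elk4 had 51.6, 56.6, 46.6 and 47.8 FPKM. Both dKO libraries were below WT for each (limma adjusted p = 0.219 and 0.288). By limma at an unadjusted p under 0.05, 2 of the 6 factors were lower and 1 was higher, where 7.08% and 9.64% of all rows were. All 6 factors were named after their values were seen.

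Markers of dividing cells also differed between the groups. All 15 were higher in dKO with both libraries above WT, with 0 called by limma and 15 higher at an unadjusted p under 0.05. They summed to 431 and 329 FPKM in WT and 571 and 592 in dKO. Over all rows 27.8% had both dKO libraries above WT, and 9.64% were higher at that unadjusted p. NK cell markers had both dKO libraries below WT in 4 of 4 tested, with 3 lower by limma at an unadjusted p under 0.05 and 0 called. Over all rows 23.4% had both dKO libraries below WT, and 7.08% were lower at that unadjusted p. NK cell markers summed to 14.2 and 16.7 FPKM in WT and 7.93 and 9.9 in dKO. Platelet markers summed to 7.84 and 10.4 FPKM in WT and 8.17 and 6.27 in dKO. The part of these cells in the values of Actn1 or of the other actin genes was not tested. Stromal and smooth muscle markers, whose cells are rich in contractile actin genes, summed to 3.01 to 4.18 FPKM, with Acta2 at 0.173 to 0.658 FPKM.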

How the data were processed

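RNA from 2 WT and 2 dKO libraries of sorted splenic Treg cells was sequenced, and groups were taken from the sample titles. Per the submitters' processing notes the tools named are TopHat2 2.1.0, Cuffdiff 2.2.1 and FastQC, with the build mm10; annotation, filters and strand setting: not given in the sources used here. Deposited by the authors were 24346 rows with FPKM per library and per group, with their log2 fold changes, p-values and q-values. Library columns are numbered 0 and 1 and titles 1 and 2, so columns were tied to groups only.

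FPKM are not counts, so values were tested on the scale log2(FPKM + 1) by limma 3.58.1 (R 4.3.3), two-sided and without pairing, with a mean-variance trend; p-values were adjusted by Benjamini-Hochberg over the 11595 rows that reached 1 FPKM in 2 or more libraries. The fit had 2 residual and 2.31 prior degrees of freedom, and the script was tested on simulated data. Small RNA rows (miRNA, snoRNA, snRNA, rRNA, tRNA and like classes, by RefSeq type or symbol) numbered 224 of those tested. Depth was estimated in single-transcript genes, assuming fragments of 200 bases. Positions and 50-base windows came from GENCODE M21 (GRCm38).

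The genes and lists were chosen with earlier results of these data known, so no list was given a test. Genes were named by a rule: those called or in the authors' lists, the 6 largest differences in each direction, the most abundant of each role, related pairs, and genes not tested; others are named to complete their group. A result for 1 related gene that the rule names is not reported here. Alternatives covered pseudocounts, filters, scalings, small RNA rows, the trend, a replicate block and each library left out.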

Additional observations from a re-analysis of the deposited data

How the results depend on the processing

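The number of actin genes called (1 lower, 0 higher) and their median difference of 0.11 held under other pseudocounts, filters and scalings, without small RNA rows, without the trend, and without WT_0 or WT_1; the median lay between 0.07 and 0.13 over all alternatives. Without a filter on low values 10 rows were called higher and 6 lower, and with small RNA rows left out 128 and 58, including 2 related genes called higher, Myo1f and Tagln2 (the latter named after its values were seen). Leaving out 1 library gave 0 to 134 rows called higher and 2 to 86 lower, 0 to 1 actin genes called lower, and 0 to 1 related genes called in each direction; each such fit has a lone library that is assumed to vary like the others. A replicate block on the column numbers left 5 rows called higher, 2 lower and 0 actin genes (Actn1 adjusted p = 0.111); same-numbered libraries had deviations correlated at -0.11, so the numbers are not shown to pair the libraries. The crossed pairing, added after seeing the data, gave 8 rows lower and 0 actin genes called lower. Among rows with a mean FPKM of at least 100, also added later, 2 of 35 actin genes had both dKO libraries below WT. This was so in 17.9% of all such rows.

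Differences near 0 turned sign, in more genes than those given here. After quantile normalization Was, Wipf1 and Wasf2 all lay below 0, as did 1 of the 3 membrane-linking genes. Was had -0.0186 after median centring and -0.0461 after quantile normalization, and -0.0159 to 0.0213 with 1 library left out. Actn4 had -0.0168 and -0.0552 under the same scalings, and -0.0641 to 0.0729 with 1 library left out. Myl12b had -0.1031 to 0.0402 with 1 library left out. The cause was not tested. Of 500 values for 36 named genes under 14 alternatives, 482 kept direction and side of the threshold. With 2 libraries a group, the median 95% interval of an actin gene reached 0.19 to either side on the log2 scale, with a range of 0.145 to 0.602.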
